A study of Mus musculus with 8 samples.

Results

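Slc1a2, Slc1a3, Slc6a11, Grm3, Grm5, Abat, Glud1, Slc7a10 and Slc38a3 are 9 genes with which astrocytes take up, sense and metabolise the transmitters glutamate and GABA. They were chosen by name, with earlier results of these data known. Each of the 9 was measured where the platform annotation gave a transcript cluster (a set of probes summarised as 1 signal) that symbol alone, and this held for 8 of them. The array held 30738 genes with a cluster, counting for genes other than these also clusters whose several symbols resolve to 1 gene. Glud1, glutamate dehydrogenase, shares its cluster with a second annotated gene and is not analysed here. RNA was measured on 8 arrays of primary mouse cultures differentiated from radial glia, the progenitors of ependymal cells, which line the brain ventricles and carry motile cilia. By their titles 4 arrays are of untreated cultures and 4 of cultures given epidermal growth factor (EGF), and the sample descriptions and protocol also give untreated and EGF. Untreated cultures were kept in DMEM/F12 with 2% FBS and penstrep. EGF cultures were given the same medium plus EGF at 20 ng/ml when differentiation began. Cultures ran for 2 weeks. The source names give DMSO for the untreated and MLN4924, an inhibitor of NEDD8 conjugation, for the EGF arrays. Nothing in the sources used here settles this conflict, so "EGF" below means the arrays so titled. The labels name the cultures as ependymal and do not state that the replicates are separate cultures or animals, and the p-values therefore cover the spread among these arrays, which may be technical.

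Astrocytes end glutamate signalling by carrying the transmitter across their membrane with sodium. Slc1a2 (GLT-1) and Slc1a3 (GLAST) are the main carriers, the glutamate is turned into glutamine or oxidised, and Slc38a3 (SNAT3) releases glutamine for neurons to reuse. GABA is taken up by Slc6a11 (GAT-3) and broken down by GABA transaminase, the product of Abat, while the metabotropic receptors Grm3 and Grm5 sense glutamate outside the cell. In cultured rat astrocytes, ligands of the EGF receptor are known to raise Slc1a2 and Grm5.

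The array medians were 4.56 to 4.60 (log2 signal) in the untreated and 4.71 to 4.82 in the EGF group, and the median log2 fold change over all genes was 0.17, so changes near that size depend on how arrays are scaled. The markers of the labelled cell type were bright on the untreated arrays and low on the EGF arrays: the 8 ependymal markers had mean log2 signals of 12.01 to 12.6 on the untreated arrays and 6.03 to 6.22 on the EGF arrays, and all 8 fell, Deup1, Rsph4a and Ak7 most. Of 10 astrocyte markers 7 rose and 3 fell (list means 9.87 to 9.92 untreated, 10.9 to 11.1 EGF), with Ntsr2, Aldh1l1 and Cldn10 higher. The 3 that fell, named after their values were seen, were S100b (-2.23 ± 0.10, log2 fold change ± SE), Aqp4 (-1.31 ± 0.06) and Gfap (-0.48 ± 0.08). Among the 7 that rose, Gjb6, also named after its values were seen, was dim. Its mean was 4.28 untreated, under the array medians, and 4.78 with EGF, near them. All 6 neuronal markers fell (8.81 to 9.14 untreated, 5.90 to 5.96 EGF), as did all 8 microglial markers (9.49 to 10.6 untreated, 6.03 to 6.57 EGF). The neuronal marker Rbfox3, named after its values were seen, fell by only 0.18 ± 0.06 (log2, SE) and lay under the array medians in both groups. Radial glial markers went both ways, 3 up and 3 down (12.2 to 12.4 untreated, 12.01 to 12.1 EGF). Markers of fibroblasts and mural cells fell (4 of 4), as did 3 of 4 choroid plexus markers and 1 of 3 oligodendrocyte markers. Of 5 oligodendrocyte precursor markers 3 rose and 1 fell, and 4 of 4 endothelial markers rose. Among the endothelial markers Flt1 rose by 1.91 ± 0.06 (log2, SE), while Cldn5 and Tie1 lay under the array medians in both groups. Pecam1, named after its values were seen, overlapped between the groups. After a further quantile normalization, median centring and cyclic loess 2, 1 and 1 of the precursor markers rose, 2 endothelial markers rose under each, and choroid plexus and oligodendrocyte markers had 2 and 0 falls after the first. The part of these shifts in the results below was not tested, and in such bulk samples fewer cells of a type and less RNA per cell cannot be told apart.

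Of the 8 measured genes 6 rose with EGF and 2 fell in limma, a linear model with moderated variances, two-sided, at a Benjamini-Hochberg adjusted p under 0.05 over all genes. In the same fit 60.3% of all genes were called, 39.7% higher and 20.7% lower, so being called is common on these arrays. The balance turned with the scaling, from 12198 genes higher and 6351 lower to 7271 and 7632 after a further quantile normalization, 5741 and 8540 after median centring and 6326 and 8391 after cyclic loess, where 5, 4 and 4 of the 8 members rose. The sizes set the members apart in 2 sets. Slc6a11, Grm3, Grm5 and Slc1a2 rose by at least 4-fold, which 3.85% of all genes changed in either direction, and Slc38a3 fell by nearly as much. Slc1a3, Slc7a10 and Abat changed by under 1.3-fold. The groups did not overlap for any of the 8, against 54% of all genes. The median log2 fold change of the 8 was 1.32, beside 0.17 for all genes. Because the members were chosen with earlier results of these data known, their shares and median beside those of all genes are descriptions and no test.

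**Figure D1:**
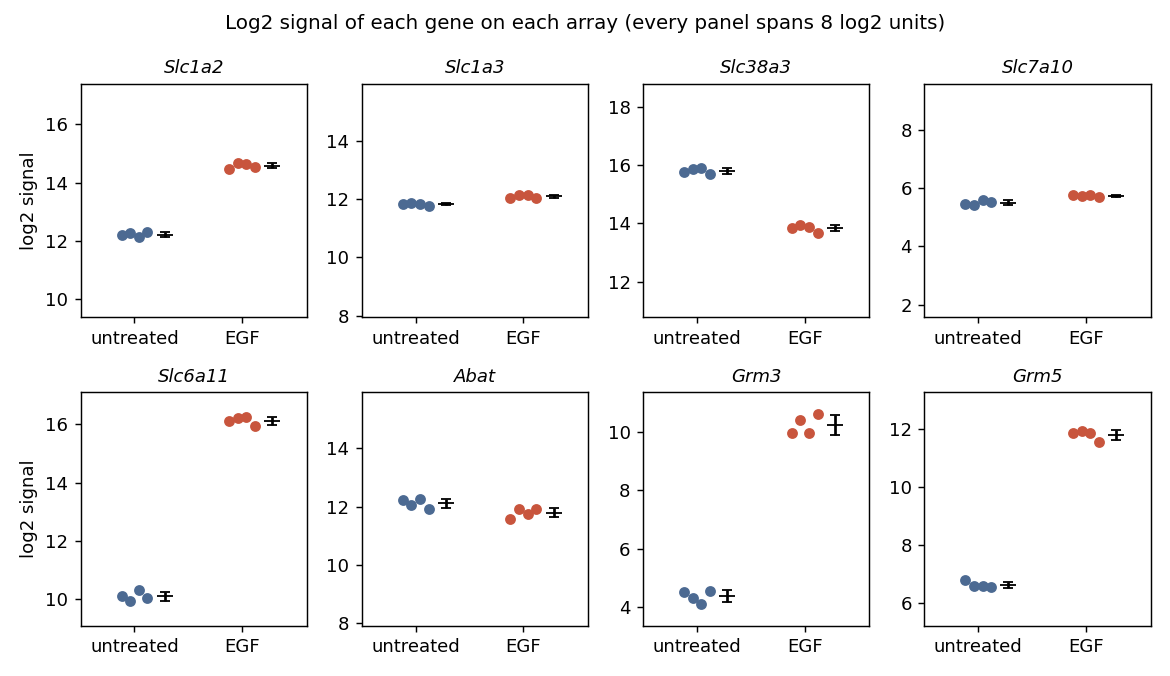
Log2 signal (vertical axis) of the 8 measured genes on each of the 4 untreated (blue) and 4 EGF (red) arrays, with the group mean ± SD in black beside the points. Each panel spans the same range of log2 units, so changes can be compared between panels and levels cannot. Slc6a11, Grm3 and Grm5 lie more than 5 units higher with EGF on average, while Slc1a3, Slc7a10 and Abat lie close together in both groups.

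Slc1a2, the carrier known for most glutamate uptake in the mature forebrain, had log2 signals of 12.19, 12.26, 12.12 and 12.30 on untreated arrays 1 to 4 and 14.48, 14.67, 14.65 and 14.53 on EGF arrays 1 to 4. All 4 EGF arrays were higher, and the arrays within a group differed by under 0.2. The change was 2.37 ± 0.07 (log2 fold change ± SE, n = 4 per group), a 5.15-fold rise with a limma adjusted p of 1.9e-09.

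Slc1a3, the related carrier that radial glia and immature astrocytes already express, hardly moved beside it. Its log2 signals were 11.83, 11.87, 11.83 and 11.77 untreated and 12.05, 12.15, 12.14 and 12.05 with EGF. The groups were apart, but the change of 0.27 ± 0.06 (limma adjusted p = 0.0027) is close to the 0.17 by which the median gene moved, and it was 0.08 with adjusted p = 0.354 after arrays were centred on their medians and 0.16 with adjusted p = 0.0502 after cyclic loess. On each array the log2 signal of Slc1a2 minus that of Slc1a3 does not depend on such a constant. That difference was 0.39 ± 0.10 untreated and 2.48 ± 0.04 with EGF (mean ± SD, n = 4), so it grew by 2.09 ± 0.05 (SE). The two-sided exact permutation p was 0.0286, the smallest that 4 against 4 arrays allow, and 0.0476 adjusted over 5 such pairs of genes.

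The 250 bases before the annotated start of these carriers are shown to set the promoters of the riser and of its little-changed relative side by side, with those of Slc6a11 and Grm3, the members with the largest rises. Of 6 members with a sequence in the RefSeq table of GRCm38.p6, the 4 shown are Slc1a2 at chr2:102706188-102706437 (plus strand), Slc1a3 at chr15:8710808-8711057 (minus strand), Slc6a11 at chr6:114130991-114131240 (plus strand) and Grm3 at chr5:9725353-9725602 (minus strand), each printed 5′ to 3′ on the strand of the gene with motif matches in capitals.
Slc1a2: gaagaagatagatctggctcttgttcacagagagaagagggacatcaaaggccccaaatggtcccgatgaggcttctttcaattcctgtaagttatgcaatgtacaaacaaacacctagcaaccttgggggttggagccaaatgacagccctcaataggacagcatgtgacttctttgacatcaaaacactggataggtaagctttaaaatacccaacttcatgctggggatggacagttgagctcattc
Slc1a3: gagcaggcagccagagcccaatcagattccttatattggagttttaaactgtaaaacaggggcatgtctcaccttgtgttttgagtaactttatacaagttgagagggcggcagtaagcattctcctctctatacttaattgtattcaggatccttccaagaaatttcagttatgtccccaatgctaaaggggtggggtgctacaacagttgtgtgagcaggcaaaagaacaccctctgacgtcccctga
Slc6a11: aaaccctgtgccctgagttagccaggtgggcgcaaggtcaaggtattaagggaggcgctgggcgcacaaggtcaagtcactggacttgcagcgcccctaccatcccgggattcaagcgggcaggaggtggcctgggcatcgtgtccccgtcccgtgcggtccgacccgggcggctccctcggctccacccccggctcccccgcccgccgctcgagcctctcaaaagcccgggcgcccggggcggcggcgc
Grm3: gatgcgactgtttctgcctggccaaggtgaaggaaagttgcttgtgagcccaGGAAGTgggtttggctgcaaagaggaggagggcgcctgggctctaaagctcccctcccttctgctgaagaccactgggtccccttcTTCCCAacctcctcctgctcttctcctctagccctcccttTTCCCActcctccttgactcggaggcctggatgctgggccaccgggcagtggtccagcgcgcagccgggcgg

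Motifs of transcription factors that act below growth factor receptors or Notch were searched on both strands of these windows. They were AP-1 (TGANTCA, in 6.75% of 32851 windows of this length before annotated starts), CRE (TGACGTCA, 1.55%), the NF-kB consensus (7.25%), ETS (GGAAGT, 19.7%) and RBPJ (TGGGAA, 21.6%). The Slc1a2, Slc1a3 and Slc6a11 windows held none of them, which says no more than that these letters are not in these windows. Grm3 held 1 ETS match, starting 198 bases before the start, and 2 RBPJ matches on the opposite strand, starting 112 and 72 bases before it, with no overlap. The little-changed Slc7a10, not printed, held 1 ETS match and 3 NF-kB matches, of which 2 overlap, and Glud1 held none. A match is a description, not a site of binding. The windows differed in base composition, with 44.8% G and C in each of Slc1a2 and Slc1a3, 71.2% in Slc6a11 and 62.4% in Grm3, beside a median of 52.4% over all windows.

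Slc38a3, which moves glutamine out of astrocytes, was the member that fell most. Untreated arrays 1 to 4 gave 15.77, 15.87, 15.90 and 15.68 and EGF arrays 1 to 4 gave 13.83, 13.95, 13.87 and 13.68 (log2 signal). Every EGF array lay below every untreated array by more than 1.7. It fell by 1.97 ± 0.08 (log2, SE), which is 3.92-fold, with a limma adjusted p of 1.5e-08. Slc38a1, the glutamine carrier of the same family known mainly from neurons, fell by 0.29 ± 0.08 (adjusted p = 0.0095). The difference of Slc38a3 and Slc38a1 within an array went from 1.04 ± 0.06 to -0.64 ± 0.07 (mean ± SD, n = 4), a change of -1.68 ± 0.05 (SE) with an exact permutation p of 0.0286, adjusted p = 0.0476 over the 5 pairs.

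Slc7a10 (Asc-1), an exchanger of small neutral amino acids that include glycine and D-serine, was dim. Its log2 signals were 5.46, 5.41, 5.61 and 5.52 untreated and 5.76, 5.73, 5.76 and 5.70 with EGF, not far above the array medians. The groups were apart by 0.09 at the nearest arrays. The rise of 0.24 ± 0.06 (limma adjusted p = 0.0087) was no longer called after a further quantile normalization (0.14, adjusted p = 0.0786), median centring (0.05, adjusted p = 0.621) or cyclic loess (0.07, adjusted p = 0.428), so the rise was not apart from the shift of all genes. Slc7a11, the exchanger that imports cystine and releases glutamate, had 0.36 ± 0.10 (adjusted p = 0.012). The change in the difference of Slc7a10 and Slc7a11 was -0.12 ± 0.11 (exact permutation p = 0.257, adjusted p = 0.321), which does not show that they moved alike.

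**Figure D2:**
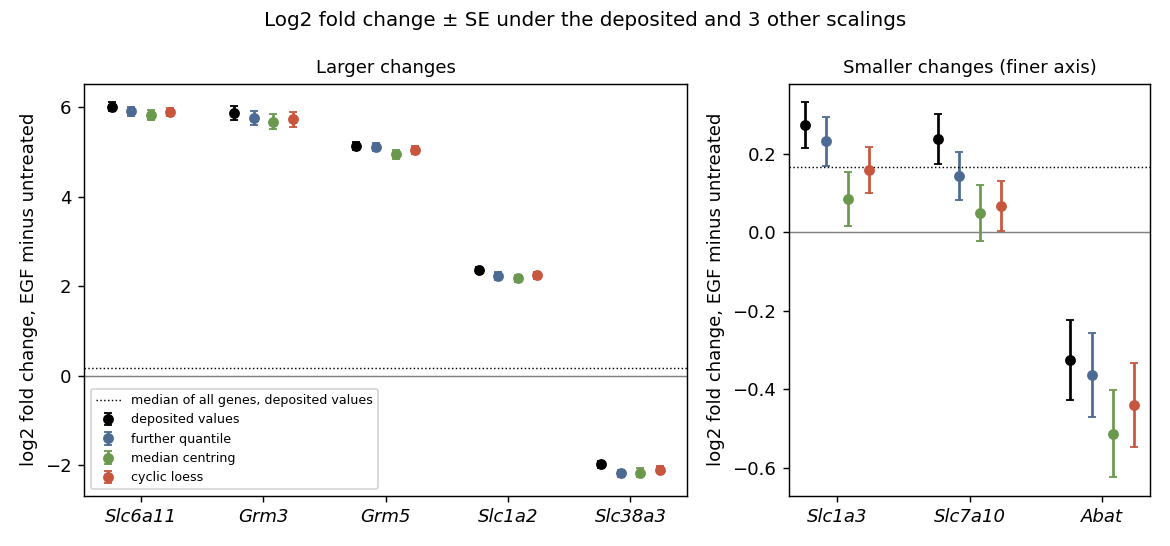
Log2 fold change ± SE (vertical axis) of the 8 genes with the deposited values and after a further quantile normalization, median centring of each array and cyclic loess. The dotted line is the median of all genes with the deposited values, 0.17. The 5 larger changes stay apart from 0 under all 4 scalings, and those of Slc1a3 and Slc7a10 approach it after median centring (0.08 and 0.05).

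Slc6a11, the GABA carrier of astrocytes, had, with Grm3, the largest measured change of the 8. It gave log2 signals of 10.11, 9.95, 10.31 and 10.04 on the untreated arrays and 16.10, 16.20, 16.24 and 15.94 on the EGF arrays. The 4 EGF arrays lay within 0.3 of each other, more than 5 above the highest untreated array. The rise of 6.02 ± 0.09 (log2, SE) is 64.8-fold, with a limma adjusted p of 1.1e-10, and ranked 6 among the measured rises of all 30738 genes.

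Abat, the enzyme that starts the breakdown of GABA in mitochondria, did not follow the carrier. The log2 signals of Abat were 12.24, 12.04, 12.25 and 11.93 untreated and 11.58, 11.91, 11.75 and 11.92 with EGF, so the highest EGF and the lowest untreated array were 0.01 apart. The fall of 0.32 ± 0.10 (limma adjusted p = 0.0198) was called, but not without untreated replicate 1 (adjusted p = 0.0531), untreated replicate 3 (adjusted p = 0.0569) or EGF replicate 1 (adjusted p = 0.0508). The other scalings kept the call and gave larger falls. The change was -0.36 after a further quantile normalization (limma adjusted p = 0.0166), -0.51 after median centring (adjusted p = 0.0026) and -0.44 after cyclic loess (adjusted p = 0.0063). Gad1, which makes GABA in neurons, fell by 0.26 ± 0.10 (limma adjusted p = 0.048), close to the threshold and with groups that overlapped. Against Gad1, Abat showed a change in their difference of -0.07 ± 0.14 (exact permutation p = 0.743, adjusted p = 0.743). All 6 neuronal markers fell on the same arrays, and whether this bears on Gad1 was not tested.

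The receptor genes Grm3 and Grm5 rose by more than 5 on the log2 scale. Grm3 encodes a receptor that lowers cyclic AMP through Gi proteins and is common in mature astrocytes. Its log2 signals were 4.53, 4.31, 4.11 and 4.54 untreated, each under its array's median, and 9.96, 10.43, 9.97 and 10.61 with EGF. The measured rise was 5.87 ± 0.16 (log2, SE), with a limma adjusted p of 1.1e-09. The untreated signals lie where most clusters lie and no detection calls were used, so the true fold can be larger and its rank is not given. With the untreated signals raised to their array medians, a setting chosen after the data were seen, the rise was 5.66, or 50.5-fold.

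Grm5 encodes a receptor that raises intracellular calcium through Gq proteins and is known from neurons and young astrocytes. Its log2 signals were 6.79, 6.60, 6.61 and 6.57 untreated and 11.86, 11.91, 11.83 and 11.53 with EGF. The groups were more than 4.7 apart at their nearest arrays. The rise of 5.14 ± 0.09 is 35.3-fold (limma adjusted p = 1.6e-10) and ranked 20 among all measured rises. Neuronal markers, Dcx, Stmn2 and Tubb3 most, were lower on the same arrays, and which cells gave the Grm5 signal was not tested. Grm3 gained on Grm5 by 0.73 ± 0.25 (log2, SE) within an array, from -2.27 ± 0.19 to -1.54 ± 0.45 (mean ± SD, n = 4), with an exact permutation p of 0.0286 and adjusted p = 0.0476. This difference rests on untreated Grm3 signals under the array medians, and with those raised to the medians the gain was 0.52. The nearest arrays of the groups were -2.03 and -1.90, and the measured gain was 0.52 without EGF replicate 4.

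**Figure D3:**
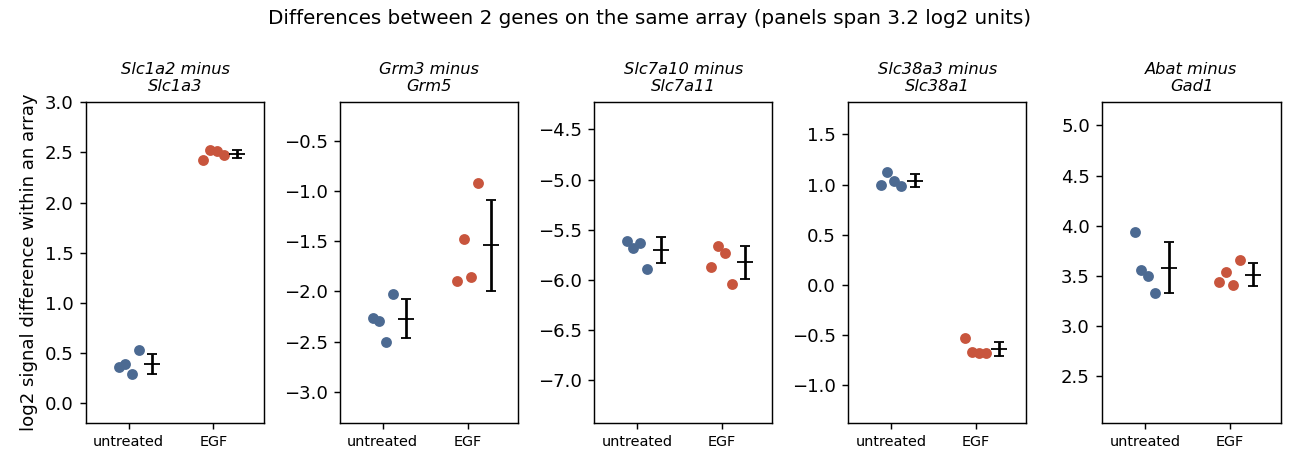
Difference of the log2 signals of a pair of genes on the same array (vertical axis) for the 4 untreated (blue) and 4 EGF (red) arrays, with mean ± SD in black. The difference of Slc1a2 and Slc1a3 is higher with EGF, that of Slc38a3 and Slc38a1 is lower, and those of Slc7a10 and Slc7a11 and of Abat and Gad1 overlap between the groups.

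Other genes of glutamate and GABA handling, 53 measured of 62 listed, moved in both directions. Of them 22 rose, 17 fell and 14 did not pass in the same fit, in which 39.7% of all genes were higher and 20.7% lower. Their median log2 fold change was 0.13 beside 0.17 for all genes. The lists too were chosen with earlier results known, so these counts are descriptions and no test. After a further quantile normalization, median centring and cyclic loess 19, 14 and 16 rose and 21, 21 and 22 fell, and the counts over all genes given above turned in the same way.

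Among 5 other carriers of the Slc1 family 3 rose, 1 fell and 1 did not pass (median 0.23). Slc1a4, a carrier of serine and alanine, rose from 12.22 ± 0.11 to 14.79 ± 0.09 (log2 signal, mean ± SD, n = 4), and Slc1a5, a glutamine carrier, rose by 0.55 ± 0.09 (SE). Slc1a1 (EAAC1), the glutamate carrier of neurons, fell by 0.78 ± 0.13. Among 7 measured GABA carriers and enzymes 2 rose, 3 fell and 2 did not pass (median 0.05). Aldh5a1, which completes the breakdown that Abat starts, rose by 1.48 ± 0.12, and Aldh9a1, an aldehyde dehydrogenase that can form GABA, by 1.29 ± 0.09. Maob, the monoamine oxidase of astrocytes, fell by 1.57 ± 0.13.

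The enzymes and mitochondrial carriers of glutamate, 10 measured, held 5 that rose, 2 that fell and 3 that missed the threshold (median 0.30). Gpt2, which passes amino groups between glutamate and alanine in mitochondria, rose from 9.37 ± 0.10 to 11.55 ± 0.15 (log2 signal, n = 4), and Aldh18a1, which turns glutamate towards proline, by 2.07 ± 0.08 (SE). Slc25a18, a mitochondrial glutamate carrier, fell from 16.16 ± 0.09 to 14.11 ± 0.09.

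Amino acid carriers and exchangers held the largest fall of these lists. Among the 12 of them 4 rose, 5 fell and 3 missed the threshold (median -0.02). Slc7a8 (LAT2) fell from 10.97 ± 0.49 to 6.83 ± 0.22 (n = 4), the taurine carrier Slc6a6 fell by 2.12 ± 0.09, and Slc7a5 (LAT1), which brings in large neutral amino acids in exchange for glutamine, rose by 1.78 ± 0.10.

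Among 12 other receptors and Homer scaffolds 6 rose, 2 fell and 4 did not pass (median 0.22). Gabbr1, a subunit of the GABA-B receptor, rose from 8.72 ± 0.08 to 11.26 ± 0.07 (n = 4). Its partner subunit Gabbr2 had a log2 fold change of -0.16 ± 0.08 (adjusted p = 0.093). The GABA-A receptor subunit genes split, and Gabrb1 fell by 3.56 ± 0.11 while Gabrg1 rose by 1.12 ± 0.12. Homer1, which tethers Grm5 at the membrane, rose by 0.96 ± 0.06. Gabbr2 and Homer1 were picked after their values were seen.

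The sodium pump maintains the gradient on which Slc1 and Slc6 carriers run, and 3 of its subunits were measured. The glial beta subunit Atp1b2 rose by 1.93 ± 0.09 (log2, SE), and Atp1b3 and Atp1b1 fell by 1.33 ± 0.08 and 0.50 ± 0.08. Of 4 vesicular carriers, with which neurons load transmitter, Slc17a8 (VGLUT3) fell by 2.48 ± 0.13 and Slc32a1, the vesicular GABA carrier, by 1.25 ± 0.14. Slc17a7 rose by 0.26 ± 0.07 at signals of 4.13 ± 0.08 and 4.39 ± 0.08 that lie under the array medians, and it was not higher in the calls after the other scalings, where 0 of the 4 rose.

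**Figure D4:**
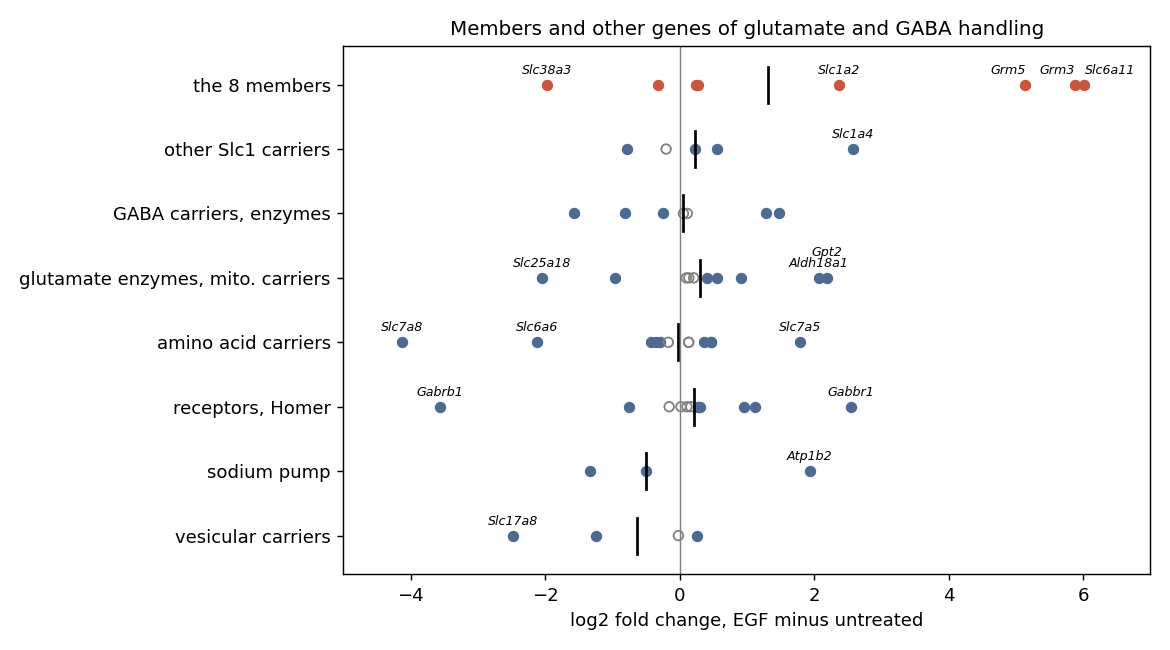
Log2 fold change, EGF minus untreated (horizontal axis), of the 8 members and of 53 other genes in 7 lists; each point is a gene, filled where the limma adjusted p is under 0.05 and open where it is not, and the black bar is the median of the row. Slc6a11, Grm3 and Grm5 lie farthest to the right, and Slc7a8 and Gabrb1 farthest to the left.

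Likeness of change was measured as the root mean square difference over the 8 arrays after each gene was centred on its own mean, among 19080 genes with a proper name, so that probe brightness does not enter. This measure was chosen after the data were seen. The gene most like Slc6a11 was the astrocyte marker Ntsr2 (0.175), most like Grm3 was Fgf11 (0.227) and most like Grm5 was Itga7 (0.101). Htra3 was the most like Slc1a2 (0.0575) and Tom1l1 the most like Slc38a3 (0.0605). For the little-changed members the most like genes were Shprh for Slc1a3 (0.0194), Slc35a5 for Abat (0.0559) and Dnajc7 for Slc7a10 (0.0293). Most genes moved little, so close matches are easier to find for these 3. With 2 groups of close replicates the measure mainly finds a gene with a similar size of change, as Ntsr2 with 6.18 beside 6.02 for Slc6a11. A match is therefore a description and does not show that 2 genes share a cell type or regulation.

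A second deposited table lists the authors' own comparison of groups called ctrl and gf, with a log2 difference of at least 1 in each row. Its averages are bi-weight averages by their headers, which give outlying values less weight, and they were set here against plain means. They are not the means of these 8 arrays: over its 4136 clusters the ctrl average in the authors' deposited table was a median of 0.72 (log2) from the untreated mean and the gf average 0.674 from the EGF mean, and 15.0% of clusters had the opposite direction. Of the members, only Grm3 and Grm5 were found in it. The clusters of Slc6a11, Slc1a2 and Slc38a3 had no row there, although they changed by 6.02, 2.37 and -1.97 (log2) on the arrays. Why they are missing was not tested. Slc1a3, Slc7a10 and Abat, which changed little on the arrays, had no row either. Grm3 had 4.59 for ctrl and 9.62 for gf with a p-value of 5e-06 and a false discovery rate of 0.00225 in the authors' deposited table. Grm5 had 7.45 and 10.59 with a p-value of 8.7e-05 and a false discovery rate of 0.00627 in the authors' deposited table. Of the other genes of the lists 13 were found in the authors' deposited table, 11 with the direction of the arrays. Gpt2 (10.84 for ctrl, 9.64 for gf) and Gad2 (5.14 and 6.35) in the authors' deposited table ran opposite to the arrays, where Gpt2 rose by 2.18 ± 0.09 and Gad2 fell by 0.82 ± 0.15; Gad2 was picked after its values were seen.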

How the data were processed

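RNA of 8 primary culture samples was measured on 1 array each. The authors deposited log2 signals per transcript cluster, with RMA, affy and limma named in the submitters' processing notes without version, role or order; that the values are log2 was taken from their range and from the header of the second table. Per the file headers, that table holds bi-weight log2 group averages by the authors with their p-value and false discovery rate. The centring of the arrays and the genome build of the array are not given in the sources used here.

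Of 65956 clusters 31292 had 1 gene after symbols were updated through RefSeq (GRCm38.p6, used for names and promoter sequences), among them 654 with several symbols that resolve to 1 gene (used for no member), and the brightest cluster of each gene over all arrays gave 30738 genes. Samples were grouped by title. No filter and no further normalization preceded limma 3.58.1 (R 4.3.3), with the Benjamini-Hochberg adjustment over all genes. In data simulated for this comparison over 30738 genes, 39 of 67 genes changed by 0.5 (log2), 61 of 67 changed by 1 and 66 of 66 changed by 2 were recovered, with 11 false calls. Only these genes were changed there, with independent noise and no shift between arrays. In the real fit 60.3% of genes were called and the arrays were shifted, so these rates and false calls do not describe it. Of 7 planned pairs of genes 5 had both genes measured. Members and lists were chosen with earlier results of these data known. Genes named beyond the members are the partners in pairs, up to 3 genes of each list with the largest change among those that passed without overlap, and the gene most like each member; exceptions are marked. The measure of likeness first planned was not centred and compares probe brightness, so it is not reported. The number of arrays limits the precision. Alternatives were 3 other scalings, brighter clusters only, another choice of cluster (their mean, or each one), a replicate block, treat at 1.5-fold, array weights, a trended and robust eBayes, adjusted p under 0.01, and leaving out each array. Python 3.11.15, pandas 2.3.3, numpy 2.4.6 and matplotlib 3.10.9 handled tables and plots.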

Additional observations from a re-analysis of the deposited data

Results flagged for a closer look

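In the EGF group, 1 of the 4 arrays stood away from the others in the difference of Slc38a3 and Slc38a1: EGF replicate 1 was at -0.53 and the others at -0.67, -0.68 and -0.68 (log2). Its gap to the nearest array was 0.933 of the group's range, above Dixon's critical value for 4 samples. The gap is small beside the change of -1.68 between groups. It is the 1 such case among 26 groups of 4 examined (8 genes and 5 pairs in each group), of which chance flags about 5%.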

How the results depend on the processing

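Slc1a2, Slc6a11, Grm3, Grm5 and Slc38a3 kept their direction and stayed past the threshold in all 18 alternatives named in the methods, and leaving out single arrays moved them over 2.33 to 2.40, 5.97 to 6.09, 5.75 to 5.96, 5.10 to 5.22 and -2.01 to -1.92 (log2). Each measured member had 1 cluster of its own, so another choice of cluster could not move its estimate. Brighter clusters only, the trended and robust eBayes, the replicate block and treat also leave the estimate as it is. These can change only its p-value. Slc1a3 ended its call after median centring (0.085), cyclic loess (0.16) and in treat at 1.5-fold (0.27, adjusted p = 1), and Slc7a10 after quantile normalization (0.14), median centring (0.05), cyclic loess (0.067) and in treat (0.24, adjusted p = 1); without single arrays they ranged over 0.25 to 0.29 and 0.21 to 0.27. Abat ended its call in treat (-0.32, adjusted p = 1) and with the replicate block (-0.32, adjusted p = 0.0528), and ranged over -0.39 to -0.26 without single arrays. The count of members lower therefore fell from 2 to 1 with the replicate block, in treat, at an adjusted p under 0.01 and without single arrays (1 to 2), while 6 rose without any 1 array. The replicate numbers showed no pairing of the samples (correlation of deviations between same-numbered arrays -0.08 to -0.003), which does not exclude one. The block changed no other member's call, and it called 17437 genes in place of 18549. Treat called 5190 genes.

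For the lists, quantile normalization, median centring and cyclic loess gave these values in that order. Medians were 0.033, 0.042 and 0.039 for other Slc1 carriers, -0.13, -0.13 and -0.14 for GABA carriers and enzymes, 0.024, 0.028 and 0.019 for receptors, -0.71, -0.69 and -0.63 for the sodium pump and -0.78, -0.82 and -0.81 for vesicular carriers; the median of glutamate enzymes was 0.12 after centring, and that of amino acid carriers -0.21 after centring and -0.16 after loess. Of other Slc1 carriers 2 fell under each, and of vesicular carriers 0 rose under each. Of amino acid carriers 2 rose after centring, and of receptors 3 rose after centring and after loess, and 4 fell after quantile normalization and after loess. These scalings move the median of all genes from 0.17 to 0.0083, -0.020 and -0.011. Pair differences without single arrays ranged over 2.06 to 2.14 for Slc1a2 and Slc1a3, 0.52 to 0.85 for Grm3 and Grm5, -0.18 to -0.05 for Slc7a10 and Slc7a11, -1.72 to -1.65 for Slc38a3 and Slc38a1 and -0.15 to 0.05 for Abat and Gad1, where the direction turned without untreated replicate 1 (0.049). Dim signals, as of Slc7a10 and untreated Grm3, limit what a change at that level can show, since no detection calls were used.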
